A study of Homo sapiens with 8 samples.

Results

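The keratins are the intermediate filament proteins of epithelial cells, and 10 of their genes were examined here in DLD-1, an established line of human colorectal adenocarcinoma cells. The genes were KRT80, KRT8, KRT18, KRT19, KRT20, KRT7, KRT23, KRT10, KRT15 and KRT17. KRT80 was chosen by its fall in the comparison described below, and the other 9 because they belong to the same family, so that the question was whether other keratins moved with it. All probe sets that the platform annotation assigns to one of these genes and to no other were taken. This gave 15 probe sets of 9 genes, out of 41091 probe sets of 19752 genes on the array. KRT17 had no such probe set and is named only.

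The tested cells were transfected with a miR-143 duplex at 50 nM (4 arrays), and the other cells were mock-transfected (4 arrays). The labels name Lipofectamine as the reagent for both groups and do not say what else the mock cells received. The study describes the 4 cultures of each group as biological replicates, from which RNA was taken 24 h later and hybridised to Affymetrix HG-U133 Plus 2.0 arrays. No array of a control duplex was used here, so an effect of any small RNA duplex and an effect of miR-143 cannot be told apart. All values are log2 values as deposited, in which a difference of 1 is a doubling, and array medians lay between 7.15 and 7.24.

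Keratins assemble as pairs of a type I and a type II protein, and neither type forms filaments alone. Simple epithelia such as the lining of the colon are known for KRT8 (type II) with KRT18, KRT19 and KRT20 (type I), while KRT10, KRT15 and KRT17 are best known from skin and its appendages. MicroRNAs lower their target mRNAs by pairing of their seed, bases 2 to 8, with sites in the mRNA. The mature arms of miR-143, which the transfected duplex was made to mimic, are shown because they are the agent that separates the groups. They are RefSeq sequences of build GRCh38.p14, written 5′ to 3′ with the seed in capitals, and lie on the plus strand at chr5:149428978-149428998 for the 3p arm and at chr5:149428944-149428965 for the 5p arm.
hsa-miR-143-3p: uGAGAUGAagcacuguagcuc
hsa-miR-143-5p: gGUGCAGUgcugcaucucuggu
The letters complementary to the seed are UCAUCUC for the 3p arm. Whether keratin mRNAs carry them was not analysed here, since no transcript sequences were used.

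The arrays numbered 4 of both groups stood apart from the others. They had scores of 33.1 (miR-143) and 35.3 (mock) on principal component 1, where the remaining arrays scored between −24.8 and −4.48, and this component carried 63.6% of the variance. Results are therefore also given without these arrays. The labelled cell type was checked against marker genes. EPCAM and CDH1, surface proteins of epithelial cells, had means over the 8 arrays of 13.60 and 12.85, while the intestinal factors CDX2 and CDX1 had 8.30 and 7.73. The colon markers LGALS4 (7.12), GPA33 (7.31) and CEACAM5 (7.34) lay near the array medians. They and CDX1 lay inside the range given below for genes that the cells should lack, and CDX2 lay just above its top of 8.14. Villin (VIL1), of the brush border, was at 7.60, inside the range given next for genes that the cells should lack. Its log2 fold change was −0.100, with a 95% interval of −0.21 to 0.011 from the limma fit described below. All its miR-143 arrays lay below the mock arrays, which held for 1.24% of all genes. Markers of stratified epithelium, fibroblasts, leukocytes and endothelium had means between 6.34 and 8.14, which describes what a probe set can read on these arrays for a gene that the cells should lack. Probe sets bind with different strength, so levels place a probe set above or within this range but do not rank the genes by their mRNA.

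KRT80, a type II keratin found in many epithelia, was lower in miR-143-transfected cells. Its probe set read 8.55, 8.48, 8.41 and 8.83 in the miR-143 replicates 1 to 4, against 9.47, 9.41, 9.07 and 9.70 in the mock replicates 1 to 4. The highest miR-143 array thus lay below the lowest mock array. KRT80 averaged 8.57 ± 0.18 with miR-143 and 9.41 ± 0.26 in mock (SD, n = 4 each), a log2 fold change of −0.84, which leaves 55.7% of the mock level. This was the most negative value of the 19752 genes when each gene was represented by its probe set of highest mean. Because the gene was picked for this fall, the values are a description and no test is given. Such a separation, with every miR-143 array below every mock array, held for 1.25% of all probe sets. The arrays numbered 4 were the highest of their groups, and without them the log2 fold change of KRT80 was −0.83. In a bulk measurement such as this, fewer cells that express a gene and less RNA per cell cannot be told apart.

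**Figure D1:**
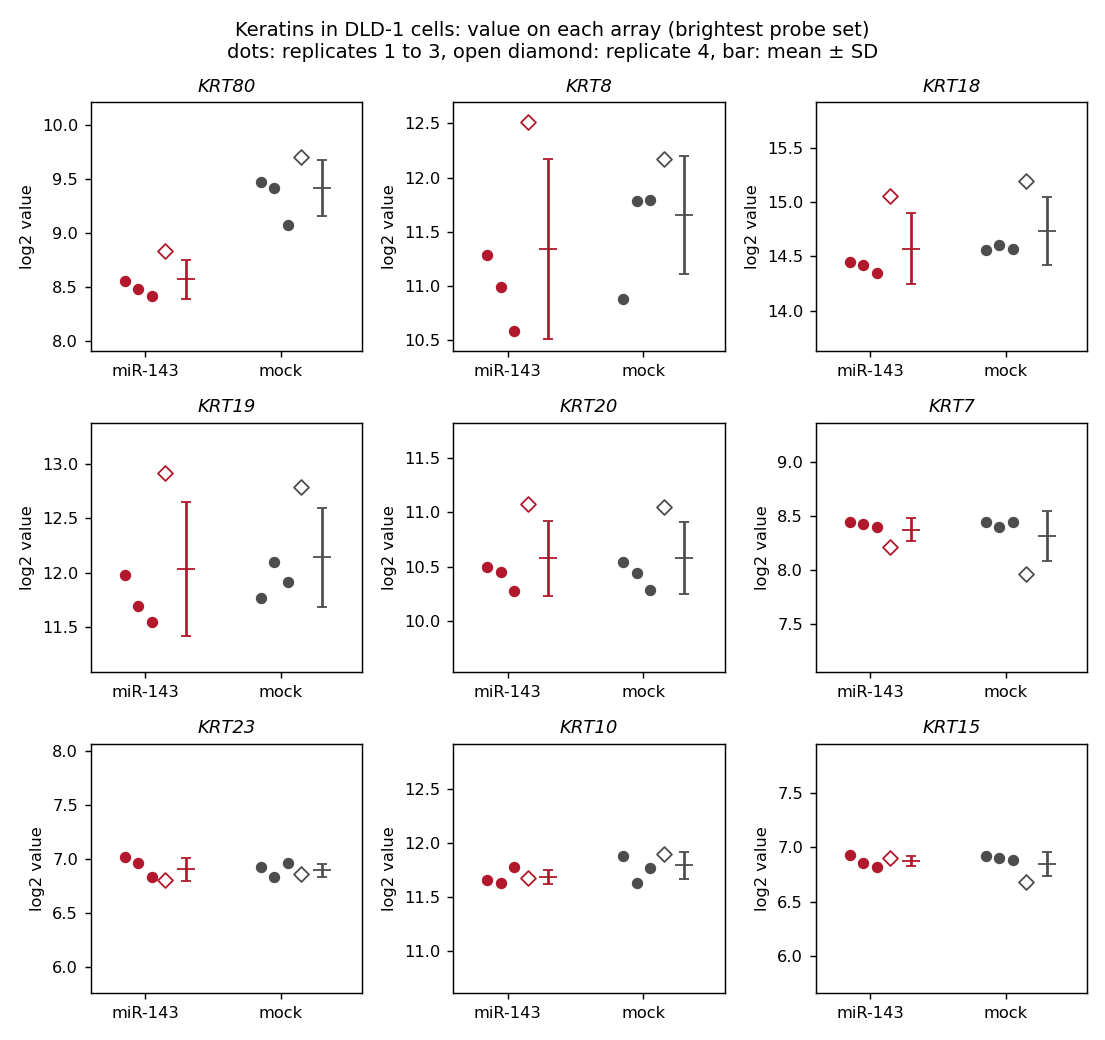
Log2 value on each array (y axis, every panel spanning the same number of log2 units) for the brightest probe set of the 9 measured keratins, with miR-143 on the left and mock on the right. Dots are replicates 1 to 3, the open diamond is replicate 4 and the bar is the mean ± SD of 4 arrays. The KRT80 groups are separate (8.41 to 8.83 with miR-143, 9.07 to 9.70 in mock), and the groups of the other 8 genes overlap.

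In the comparison over the 8 arrays none of the other 8 measured keratins passed the test, which is not given for KRT80. Among the 14 probe sets of the other 8 measured genes, limma (a moderated linear model fitted over all 41091 probe sets, two-sided, adjusted by Benjamini and Hochberg) called 0 at an adjusted p of 0.05, where 0.00243% of all probe sets (1 in number) were called. That 1 probe set belonged to OIP5-AS1, a long noncoding RNA named here after its values were seen. At an unadjusted p of 0.05 it also counted 0 of them, against 2.57% of all probe sets, and the lowest unadjusted p was 0.0555. The groups overlapped in each of the 14, where 1.25% of all probe sets had the miR-143 arrays wholly below mock and 0.781% wholly above. Their log2 fold changes were negative in 11, with a median of −0.10, where the median over all probe sets was −0.0091. Several of these probe sets read the same gene. With 1 probe set per gene, 5 of the 8 genes were negative and 3 positive, with a median of −0.056. Negative values were also found in 10983 of all 19752 genes, and in 7138 of the 11631 genes above the median level. Without the arrays numbered 4, limma called 0.124% of all probe sets and 0 of these 14, with a lowest adjusted p of 0.614. At an unadjusted p of 0.05 it then counted 3 of them (KRT8, KRT18 and 1 probe set of KRT7, all with negative values), against 5.77% of all probe sets. With the replicate number as a block it counted 4 of them (KRT18, 1 of KRT7 and 2 of KRT10), against 8.83% of all probe sets, and called 0. The share called after adjustment was small with and without these arrays, and the intervals given for each gene bound its change.

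KRT8 and KRT18, the type II and type I partners of simple epithelia, had negative estimates with wide or moderate intervals. KRT8 read 11.28, 10.99, 10.58 and 12.51 in the miR-143 replicates 1 to 4, against 10.88, 11.78, 11.79 and 12.17 in the mock replicates. Replicate 4 was highest in both groups, and mock replicate 1 lay among the low miR-143 arrays. KRT8 averaged 11.34 ± 0.83 with miR-143 and 11.66 ± 0.55 in mock (SD, n = 4 each), a log2 fold change of −0.32 with a 95% interval of −1.20 to 0.56 (limma, adjusted p = 1.0). It was the 1 probe set of the 14 whose interval held the −0.84 of KRT80, so a fall as large as that of KRT80 could not be told from no change in KRT8. Without the arrays numbered 4 its value was −0.54, with an interval of −1.05 to −0.031 and an adjusted p of 0.859 from limma. Leaving out a single array also moved the estimate, to −0.066 without miR-143 replicate 3, −0.15 without mock replicate 4, −0.58 without mock replicate 1 and −0.71 without miR-143 replicate 4.

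KRT18 read 14.45, 14.42, 14.35 and 15.06 with miR-143, against 14.56, 14.61, 14.57 and 15.20 in mock, in the order of replicates 1 to 4. Among replicates 1 to 3 the miR-143 arrays lay below the mock arrays by a narrow margin, and the arrays numbered 4 lay far above both. The means were 14.57 ± 0.33 with miR-143 and 14.74 ± 0.31 in mock (SD, n = 4 each), and the log2 fold change was −0.16 (95% interval −0.57 to 0.25, adjusted p = 1.0 from limma). Without the arrays numbered 4 it was −0.17, with an unadjusted interval of −0.29 to −0.056 and an adjusted p of 0.614. It was −0.0071 without mock replicate 4 alone and −0.33 without miR-143 replicate 4 alone. The single probe set of KRT8 and that of KRT18 both carry the suffix _x_at, which marks probes that may also bind related sequences, so part of either signal could come from other transcripts such as keratin pseudogenes. According to RefSeq (GRCh38.p14) both genes lie on chromosome 12 with KRT7 and KRT80, although KRT18 is of type I, while KRT19, KRT20, KRT23, KRT10, KRT15 and KRT17 lie on chromosome 17.

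KRT19 and KRT20, the other type I keratins of intestinal epithelium, differed between groups by less than the arrays differed within them. KRT19, a keratin without the usual tail domain, read 11.98, 11.69, 11.54 and 12.92 with miR-143 on its brighter probe set, against 11.76, 12.10, 11.91 and 12.79 in mock. The ranges overlapped, with replicate 4 on top in both groups. The log2 fold change was −0.11 (95% interval −0.79 to 0.57), and it was −0.19 without the arrays numbered 4 (interval −0.43 to 0.057). Its sign depended on single arrays, with 0.11 without mock replicate 4 and −0.40 without miR-143 replicate 4. A second, dim probe set of KRT19 had means of 7.10 ± 0.04 with miR-143 and 7.12 ± 0.10 in mock (SD, n = 4 each), within the range of the markers that the cells should lack.
KRT20, a marker of differentiated intestinal cells, read 10.50, 10.45, 10.27 and 11.08 with miR-143, against 10.54, 10.44, 10.28 and 11.05 in mock. Both groups spanned nearly the same range. The means were 10.57 ± 0.35 with miR-143 and 10.58 ± 0.33 in mock (SD, n = 4 each), with a log2 fold change of −0.0045 and an interval of −0.44 to 0.43. Without the arrays numbered 4 the interval narrowed to −0.19 to 0.16 around −0.016.

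KRT10, a keratin of the upper layers of the epidermis, was read by 3 bright probe sets, whose intervals were narrower than those of KRT8, KRT18, KRT20 and the brighter probe set of KRT19. The brightest read 11.66, 11.63, 11.78 and 11.68 with miR-143, against 11.88, 11.63, 11.77 and 11.90 in mock, and replicate 2 was at 11.63 in both groups to 2 decimals. Its log2 fold change was −0.11 (95% interval −0.26 to 0.048), and the other probe sets gave −0.11 (−0.27 to 0.042) and −0.13 (−0.26 to 0.0038). All of them had an adjusted p of 1.0 from limma. The probe set with −0.13 read 10.26, 10.25, 10.30 and 10.21 with miR-143, against 10.48, 10.26, 10.44 and 10.36 in mock, and was the one with the unadjusted p of 0.0555. Replicate 2 of mock lay among the miR-143 arrays. Both of the less bright probe sets carry the suffix _x_at, so they too may read related transcripts. The 3 probe sets share a gene and the same RNA and are not independent of each other.

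KRT7, a type II keratin of glandular and ductal epithelia that is usually scarce in the colon, had 4 probe sets that did not move in parallel. The brightest read 8.45, 8.43, 8.40 and 8.22 with miR-143, against 8.45, 8.40, 8.45 and 7.97 in mock. Replicate 4 was lowest in both groups. On a second probe set, with 7.42, 7.16, 7.32 and 7.73 with miR-143 against 7.47, 7.38, 7.58 and 7.74 in mock, replicate 4 was highest in both groups. Their log2 fold changes were 0.061 (95% interval −0.19 to 0.31) and −0.14 (−0.41 to 0.13). The remaining probe sets of KRT7 lay at means over the 8 arrays of 6.80 and 6.57, with log2 fold changes of −0.097 and −0.0092. Without the arrays numbered 4 all 4 values were negative, at −0.0036, −0.18, −0.061 and −0.035 in the order given here. The unadjusted interval of the second was then −0.35 to −0.0098, with an adjusted p of 0.859 from limma. Only the brightest of the 4 lay above the range of the markers that the cells should lack, and by a small margin (8.35 against 8.14).

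KRT23 and KRT15 were read at levels inside that range. KRT23, a type I keratin of several epithelia, averaged 6.90 ± 0.10 with miR-143 and 6.89 ± 0.06 in mock (SD, n = 4 each), with a log2 fold change of 0.0092 (95% interval −0.13 to 0.15). KRT15, a type I keratin of basal keratinocytes and hair follicle stem cells, averaged 6.88 ± 0.05 with miR-143 and 6.85 ± 0.11 in mock (SD, n = 4 each), with a log2 fold change of 0.034 (−0.11 to 0.18). A gene that is absent from the cells would read at this level, so whether the cells express these genes was not detectable here.

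**Figure D2:**
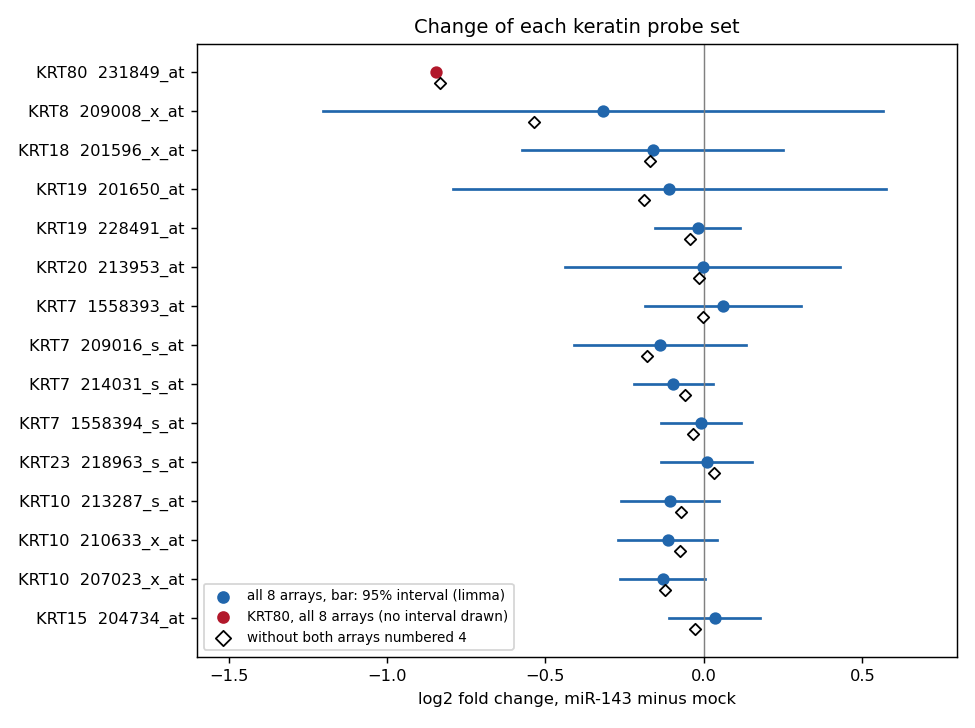
Log2 fold change (x axis, miR-143 minus mock) of the 15 keratin probe sets, grouped by gene. Filled points are over all 8 arrays with the 95% interval from limma, drawn for all but KRT80, which was chosen by its change, and open diamonds leave out both arrays numbered 4. KRT80 lies at −0.84, and of the other intervals the one of KRT8 (−1.20 to 0.56) reaches that value.

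Much of the spread within groups came with the arrays numbered 4. In miR-143 cells array 4 exceeded the mean of replicates 1 to 3 by 1.56 for KRT8, 1.18 for KRT19, 0.67 for KRT20, 0.66 for KRT18 and 0.35 for KRT80. In mock cells the excess was 0.69 for KRT8, 0.86 for KRT19, 0.62 for KRT20, 0.62 for KRT18 and 0.39 for KRT80. For the brightest probe set of KRT10 the difference was −0.0089 with miR-143 and 0.13 in mock, while another of its probe sets had array 4 on top by 0.079 with miR-143 and 0.23 in mock. Having array 4 on top in both groups was not particular to keratins. It held for 4 of the 8 other measured keratins and for 36.1% of all genes, and for 81.4% of the 3092 genes with a mean above 10. The part of these arrays in the spread of the keratins was measured only by leaving them out.

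**Figure D3:**
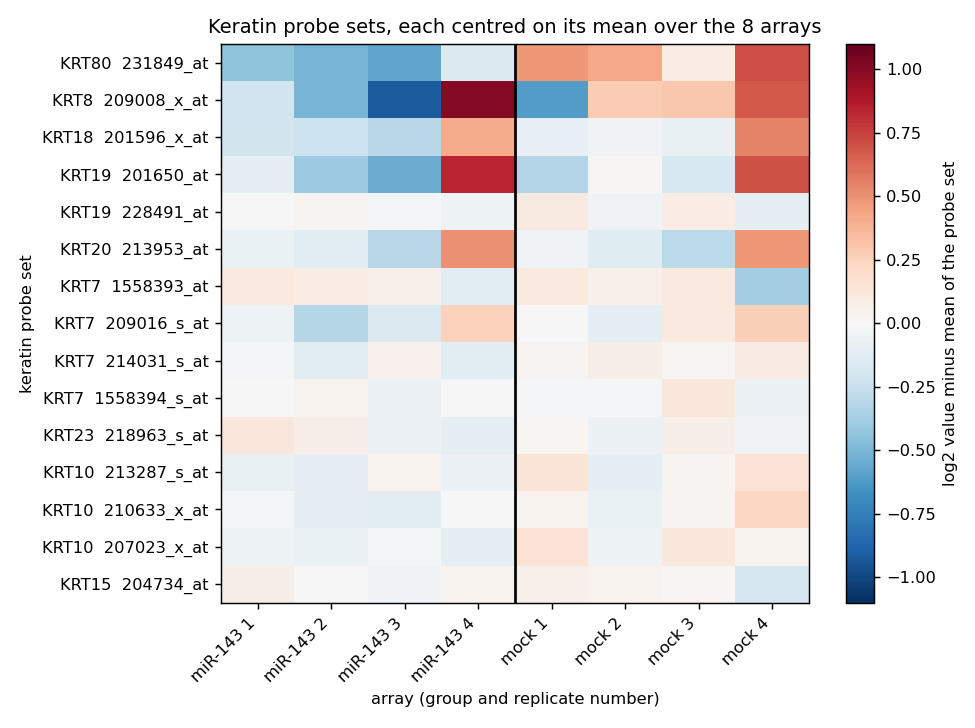
Value of each of the 15 keratin probe sets (rows) on each array (columns, miR-143 replicates left of the line and mock replicates right of it) minus the mean of that probe set over the 8 arrays, in log2 units. Red is above and blue below the mean. KRT80 is blue in the 4 miR-143 columns and red in the 4 mock columns, while KRT8, KRT18, KRT19 and KRT20 are red in both columns numbered 4.

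The small negative values of bright keratins are set here beside the medians of all bright genes. The median log2 fold change was −0.065 over the 3092 genes with a mean above 10 and −0.085 over the 656 genes with a mean above 12. Beside these stand −0.11 for KRT10, −0.11 for KRT19 and −0.16 for KRT18. KRT8 and KRT20, also with means above 10, had −0.32 and −0.0045. After cyclic loess between the arrays both medians were near 0 (0.0031 and 0.0041), and the values were −0.037 for KRT10, −0.034 for KRT19 and −0.055 for KRT18. KRT8 then had −0.25, KRT20 0.050 and KRT80 −0.81. Whether the level of a gene accounts for the keratin values was not tested.

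The wider keratin family was examined over 55 genes, of which 44 had a probe set of their own. The log2 fold change was negative in 11 of the 24 measured type I genes (median 0.0057) and in 10 of the 20 measured type II genes (median 0.00098), beside a median of −0.0091 over all genes. The type I median was −0.11 when probe sets below the median level were left out, which kept 4 of the 24. With KRT80 not counted, limma called 0 of them, and 1 of them (KRT40, a hair keratin) had an unadjusted p under 0.05, where 2.69% of all genes had. The 35 keratins outside the 10 genes examined here had means over the 8 arrays between 6.56 and 7.48, all within the range of markers that the cells should lack. KRT40 was the one among the 35 whose groups did not overlap, with 6.64, 6.64, 6.67 and 6.64 with miR-143 against 6.73, 6.77, 6.71 and 6.87 in mock, where 1.24% of all genes had the miR-143 arrays below and 0.719% had them above. Its log2 fold change was −0.12 (95% interval −0.24 to −0.0017, adjusted p = 1.0 from limma). The hair follicle keratins KRT71 and KRT72, the 2 of these 35 with a mean above the median of all probe sets, had log2 fold changes of −0.049 (−0.17 to 0.067) and 0.040 (−0.081 to 0.16). 

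**Figure D4:**
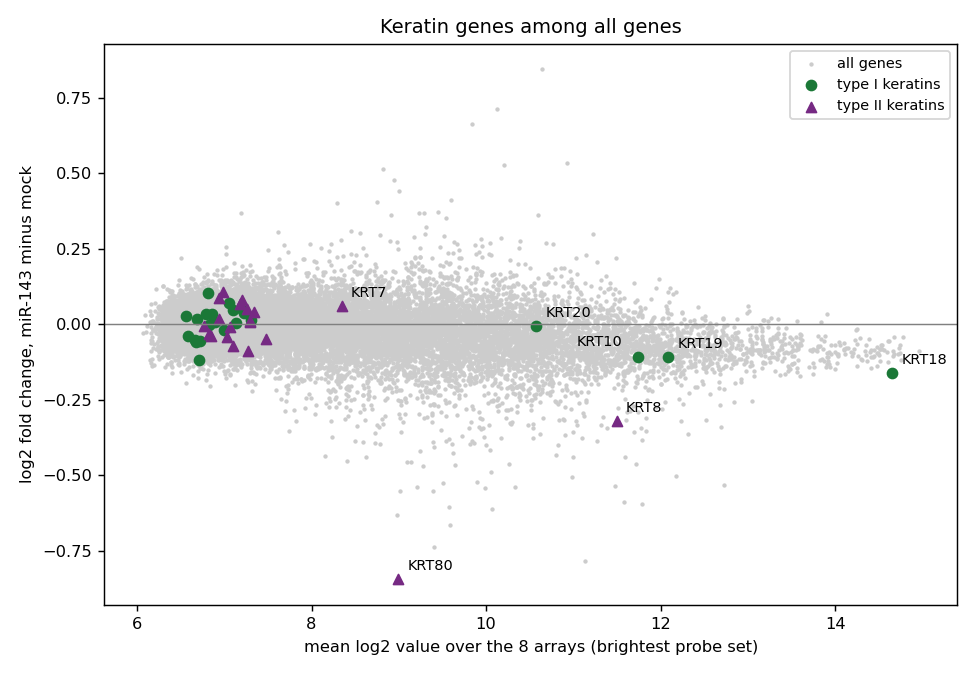
Log2 fold change (y axis, miR-143 minus mock) against the mean log2 value over the 8 arrays (x axis) for the brightest probe set of each of 19752 genes (grey), with the 24 measured type I keratins as green circles and the 20 measured type II keratins as purple triangles. KRT80 is the lowest point of all genes at −0.84. The 35 keratins outside the examined genes crowd at means between 6.56 and 7.48, with changes between −0.12 and 0.11.

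Genes that anchor keratin filaments had estimates on both sides of 0. Of 20 listed components of desmosomes, hemidesmosomes and cytolinkers, 19 were measured. Their log2 fold changes were negative in 10 and had a median of −0.011. Limma called 0 of them, and 0 had an unadjusted p under 0.05, beside the 2.69% of all genes, which for so short a list says little. Those of lowest p were DST, the cytolinker dystonin (0.16, 95% interval −0.096 to 0.42), DSC2, the desmosomal cadherin desmocollin (0.085, −0.054 to 0.22), FAM83H, which organises keratin filaments (−0.24, −0.73 to 0.25), and EPPK1, the keratin-binding epiplakin (−0.079, −0.24 to 0.088). Each of these intervals includes 0. DSC2 and EPPK1 had means over the 8 arrays of 7.82 and 7.91, inside the range of the markers that the cells should lack. DST (9.49) and FAM83H (10.14) lay above it. Without the arrays numbered 4, 3 of the 19 had an unadjusted p under 0.05, against 6.26% of all genes, and limma called 0 (lowest adjusted p 0.421). These were FAM83H (−0.29, −0.56 to −0.025), the cytolinker periplakin, PPL (−0.20, −0.32 to −0.085), and the desmosomal cadherin DSG3 (0.12, 0.0011 to 0.25), of which the last 2 are named here after their values were seen. PPL had a mean over the 8 arrays of 9.55, while DSG3, at 6.87, lay inside the range of the markers that the cells should lack. With the replicate number as a block, PPL, FAM83H and DST were the 3 of the 19 with an unadjusted p under 0.05. This held for 1937 of the 19752 genes (KRT80 not counted), and limma called 0 of the 19 (lowest adjusted p 0.216). Of 18 other intermediate filament genes 9 had a negative value, with a median of −0.0016, and limma again called 0, with 0 at an unadjusted p under 0.05. Those of lowest p were IFFO1 (−0.10, −0.21 to 0.015) and IFFO2 (0.081, −0.068 to 0.23), which carry an intermediate filament domain, the neurofilament gene NEFL (−0.090, −0.24 to 0.065) and the glial GFAP (0.10, −0.080 to 0.28). Their means over the 8 arrays (7.48, 7.78, 6.68 and 7.49 in that order) lay inside the range of the markers that the cells should lack. VIM, the filament of mesenchymal cells, had a mean over the 8 arrays of 7.30, near the array medians.

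The genes most like KRT80 across the 8 arrays were not keratins. Likeness was measured as the root mean square difference of log2 values, each gene centred on its own mean, over the same 8 arrays that gave the fall of KRT80, and is a description. The nearest of 19751 genes were ZWILCH (0.096 log2 units from KRT80), GOLM1 (0.13), GALC (0.13), EARS2 (0.15) and SLC25A15 (0.16). Their log2 fold changes, negative as the measure of likeness requires, were −0.78, −0.74, −0.61, −0.55 and −0.61 in that order. ZWILCH, the closest, read 10.72, 10.71, 10.53 and 10.99 with miR-143 against 11.57, 11.36, 11.37 and 11.79 in mock. Of the 43 other measured keratins KRT18 came closest, at 0.38 and rank 927, followed by KRT40 at 0.40 and rank 2174 and KRT10 at 0.42 and rank 3418. For comparison KRT23, with a log2 fold change of 0.0092, lay at 0.49 and rank 13387. The distances of KRT18, KRT40 and KRT10 were thus nearer to that of KRT23 than to the 0.16 of SLC25A15. KRT8 was the farthest, at 0.59 and rank 19606, although its log2 fold change of −0.32 was the most negative of the 43. The measure also counts spread within groups, and the KRT8 arrays spanned 1.93 log2 units with miR-143 and 1.29 in mock. The rank is thus no ranking by fold change.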

How the data were processed

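The authors deposited log2 values per probe set for 8 arrays, which the submitters' processing notes credit to RMA in the affy package. Versions are not given in the sources used here. RMA fits all arrays together and brings their distributions close to each other, so small shifts that go with level can remain. The values were used as deposited, and raw scans were not used here. Arrays give no counts, so the number of arrays limits the precision.

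Gene symbols came from the platform annotation, updated by Entrez identifier. Of 54675 probe sets, 41091 had a single gene, 1801 several, 11721 none and 62 were controls. Groups were compared with limma 3.58.1 (lmFit, eBayes) in R 4.3.3 over the single-gene probe sets, without a block, and adjusted p-values are from that fit unless stated. Intervals are its 95% intervals, not adjusted for the number of probe sets. A gene is represented by its probe set of highest mean. Tables and figures used Python 3.11.15, pandas 2.3.3, numpy 2.4.6 and matplotlib 3.10.9. The fit was tested on simulated data with independent noise on each array, which lacks a shared shift such as that of the arrays numbered 4.

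Named were all examined keratins, further keratins above the median level of 7.31 or with groups that did not overlap, the 4 genes of lowest p of the anchor list and of the other filament list, and the 5 genes nearest to KRT80. The genes and lists were chosen with earlier results of these data known.

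Alternatives left out each array or both arrays numbered 4, and tried the replicate number as a block, cyclic loess, quantile normalization, array weights, dim probe sets left out and 2 ways of fitting 1 value per gene.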

Additional observations from a re-analysis of the deposited data

Results flagged for a closer look

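Among the 30 groups of 4 arrays formed by the 15 keratin probe sets, 4 had an array far from the other 3 (a gap to the nearest of them above Dixon's critical share of the group's range). Chance alone flags about 1 in 20 independent groups. These groups share the same 8 arrays, and some share a gene, so that rate is no yardstick for the 4. Each array flagged was numbered 4. For KRT18 this was replicate 4 of both groups, at 15.06 with miR-143 (the others 14.35 to 14.45) and at 15.20 in mock (the others 14.56 to 14.61). For the brightest probe set of KRT7 it was mock replicate 4, at 7.97 against 8.40 to 8.45 in the other mock arrays. For KRT15 it was also mock replicate 4, at 6.68 against 6.88 to 6.92. The miR-143 replicate 4 was also lowest for this KRT7 probe set, at 8.22, but not for KRT15, where it read 6.90.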

How the results depend on the processing

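Beside the comparison over 8 arrays, 17 other settings were run. In each of them limma called 0 probe sets of the other examined keratins, with KRT80 not counted. The lowest adjusted p among these probe sets over all settings was 0.261, for KRT18 with the replicate number as a block. The log2 fold change of KRT80, which was picked for its fall on these arrays, lay between −0.96 and −0.75 with 1 array left out. It was negative in all settings. Its groups do not overlap, so leaving out arrays could not have changed the sign, and this is no support for the fall. The number of probe sets called lower and higher over the whole array was 1 and 0. It was 0 to 1 lower with 1 array left out, 32 and 19 without both arrays numbered 4, 37 and 23 after cyclic loess, 42 and 26 after quantile normalization, 35 and 19 with array weights, and 0 lower with 1 value per gene, either of the brightest probe set or of the mean. With a replicate block it was 171 and 45, and 49 and 19 with a block and without the arrays numbered 4, a setting chosen after seeing the data. Same-numbered arrays deviated together with correlations of 0.079, 0.11, 0.56 and 0.77 for replicates 1 to 4 over all probe sets, and of 0.11, 0.17, 0.58 and 0.81 over the brightest probe set of each gene, so that the limit of 0.1 for every pair was missed over the probe sets that were fitted and met over the genes. In both, miR-143 replicates 1 and 2 correlated more with mock arrays of other numbers, and no source says that a number marks a shared batch. The numbers were therefore not taken as pairs (no paired comparison is used as a result), a choice that this check leaves close. Under the block KRT18 had an unadjusted p of 0.0061 from limma.

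Several small keratin changes took the other sign. With 1 array left out KRT19 ranged from −0.40 to 0.11, KRT20 from −0.17 to 0.15, KRT7 from −0.056 to 0.11, KRT23 from −0.029 to 0.043 and KRT15 from −0.020 to 0.059. KRT20 was 0.050 after cyclic loess and 0.055 after quantile normalization. Without both arrays numbered 4, with or without the block, KRT7 was −0.0036 and KRT15 −0.028. KRT15 was −0.013 with array weights and KRT7 −0.046 as the mean of its probe sets. The median of type I keratins was −0.11 when dim probe sets were left out, which removed all but the bright genes, and that of other intermediate filament genes was −0.036 without both arrays numbered 4, with or without the block. The cause of the other differences was not tested.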
